A study of Mus musculus with 6 samples.

Results

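The nuclear-encoded genes of the mitochondrial respiratory chain and ATP synthase were described in mouse embryos at embryonic day 12. Members were taken by gene symbol: Ndufa, Ndufb, Ndufc, Ndufs and Ndufv genes with a number, Sdha to Sdhd, Uqcr genes, Cyc1, Cox4 to Cox8 genes and Atp5 genes, leaving out 8 names with -ps. Of 90 candidates, 84 reached 1 TPM (a relative transcript abundance corrected for transcript length) in at least 3 of the 6 samples, among 16411 genes that did so. By symbol they were counted as 38 genes of complex I, 4 of complex II, 9 of complex III, 16 of complex IV and 17 of complex V. The other 6 were Cox8c, Cox7b2, Cox6c2, Ndufa11b and Ndufs6b, each listed at 0 in all 6 samples, and an additional Atp5o identifier at 0.35 TPM in Tmem216-/- replicate 1 only. RNA sequencing compared 3 Tmem216-/- with 3 wild type samples, all of strain C57BL/6 and of the same age. The labels name the source as embryo, without a body part, and say neither how the allele was made nor whether each sample is a separate embryo. A p-value here therefore reflects only how these samples vary, and that variation may be technical.

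The respiratory chain sits in the inner mitochondrial membrane. Complex I takes electrons from NADH and complex II from succinate, complex III passes them to cytochrome c, and complex IV (cytochrome c oxidase) hands them to oxygen. Complex V, the ATP synthase, uses the resulting proton gradient to make ATP. Most subunits are made in nearly every cell, but several complex IV subunits have alternative forms: Cox6a2, Cox7a1 and Cox8b are the forms of heart and skeletal muscle, and Cox6a1, Cox7a2 and Cox8a are their partners in most other tissues.

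Tmem216, whose product sits at the base of the primary cilium, was 2.25, 0.51 and 1.39 TPM in Tmem216-/- samples and 31.0, 30.7 and 17.4 TPM in wild type samples (log2 fold change -3.55, SE 0.34, limma adjusted p = 0.0266). The call was lost in 7 of 16 alternatives, 5 of them leaving out a single sample, with adjusted p up to 0.196 and log2 fold changes of -3.81 to -3.25 when each sample was left out. Pairs of samples had Pearson correlations of 0.934 to 0.975 on log2(TPM + 1), with the lowest between wild type replicates 2 and 3. Wild type replicate 3 held the highest or the lowest value of the 6 samples for 62% of tested genes. The number of reads behind a TPM value is unknown. In bulk samples, fewer cells of a type and less RNA per cell cannot be told apart.

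Most respiratory chain genes lay close to the wild type level in Tmem216-/- embryos, and the muscle forms Cox6a2 and Cox7a1 stood apart from the other 82 members. None of the 84 passed limma's test at a Benjamini-Hochberg adjusted p under 0.05 over all tested genes, a threshold that 0.104% of all genes passed (0.0975% higher and 0.00609% lower). At an unadjusted limma p under 0.05 there were 3 members, Cox6a2 and Cox7a1 higher and Cox6b2 lower, where 4.46% of all genes lay under that value (2.24% higher and 2.22% lower). The groups did not overlap for 5 members (Cox6a2, Cox7a1, Ndufa12 and Uqcr10 higher, Cox6b2 lower), against 9.57% of all genes (4.75% higher and 4.83% lower). Ndufa12 and Uqcr10 are named for this count, after their values were seen.

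The median log2 fold change of the members was 0.04, beside -0.01 for all tested genes, with 58 members above 0 and 26 below, where 48.3% of all genes were above 0. It rested on single samples: without Tmem216-/- replicate 2 it was -0.0017 (41 members above 0) and without wild type replicate 2 it was -0.0006 (42 above 0). An absolute log2 fold change under 0.2 was found in 76 members, or 90.5%; this share was 70.1% of all tested genes and 87.9% of the 3272 genes that averaged 50 TPM or more. The 95% interval of the log2 fold change lay between -0.5 and 0.5 for 71 members and between -1 and 1 for 79. Only Cox6a2 and Cox7a1 had an absolute log2 fold change of 1 or more, as did 2.28% of all genes. The other log2 fold changes ran from -0.29 for Cox6b2 to 0.44 for Ndufa4l2.

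**Figure D1:**
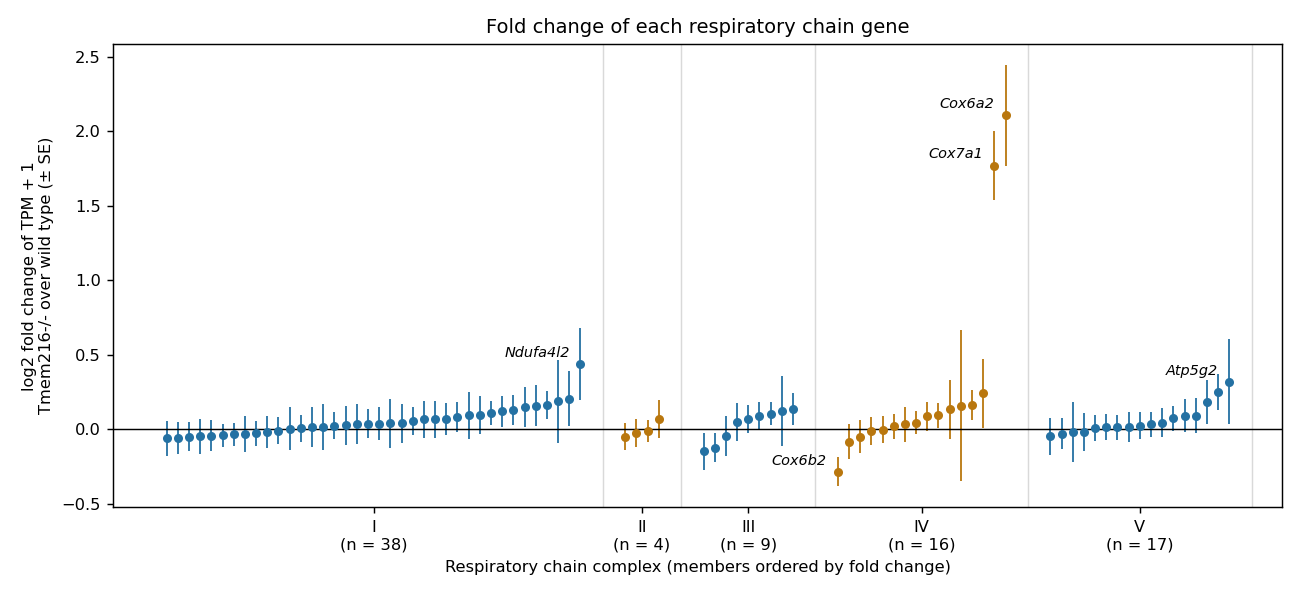
Points give the log2 fold change of TPM + 1 (Tmem216-/- over wild type, 3 samples each) of the 84 members, with bars of 1 SE, by complex and ordered by fold change within a complex. Cox6a2 at 2.11 and Cox7a1 at 1.77 lie apart from the other 82 members, which lie between -0.29 and 0.44.

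Complex I is the largest of the 5 complexes. Its 7 nuclear-encoded core subunits, which carry the flavin and iron-sulfur clusters or line the quinone site, had 4 log2 fold changes above 0 and 3 below. The 31 other genes counted here by symbol ran from -0.06 (Ndufv3) to 0.44 (Ndufa4l2), with 23 above 0 and 8 below. They are accessory subunits, except that the symbols also take in Ndufa4, its relative Ndufa4l2 and the annotated pseudogene Ndufb4c. These exceptions were all above 0. None of the 38 had an unadjusted limma p under 0.05.

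Ndufa4, named for complex I but since placed in complex IV, had the highest mean of these genes, at 445, 505 and 515 TPM in Tmem216-/- samples and 489, 439 and 414 TPM in wild type samples. The groups overlapped (log2 fold change 0.13, SE 0.10, and 0.07 without wild type replicate 3). Its low relative Ndufa4l2, known as a target of hypoxia-inducible factor, was 7.82, 5.88 and 3.78 TPM in Tmem216-/- samples and 3.58, 4.12 and 4.0 TPM in wild type samples. Tmem216-/- replicates 1 and 2 were the highest and replicate 3 lay within the wild type range (0.44, SE 0.24, limma adjusted p = 0.983; 0.23 without Tmem216-/- replicate 1 and 0.67 without Tmem216-/- replicate 3). Ndufc1, a small accessory subunit, was 178, 196 and 191 TPM in Tmem216-/- samples and 190, 120 and 190 TPM in wild type samples. Its log2 fold change of 0.20 rested on the low wild type replicate 2, and it was -0.02 without that sample. Ndufv3 (-0.06) and Ndufa10 (-0.06), the lowest 2 of the complex, were 0.01 and 0.03 without wild type replicate 3.

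Ndufa12, an accessory subunit of the arm that binds NADH, was 339, 355 and 353 TPM in Tmem216-/- samples and 332, 302 and 338 TPM in wild type samples. The lowest Tmem216-/- sample lay just above the highest wild type sample, and the log2 fold change was 0.11 (SE 0.08). Ndufb4 was 23.7, 26.4 and 25.8 TPM in Tmem216-/- samples and 26.1, 22.7 and 23.6 TPM in wild type samples, and Ndufb4c, annotated as a processed pseudogene, was 219, 257 and 251 TPM in Tmem216-/- samples and 216, 212 and 270 TPM in wild type samples. All 390 bases of the Ndufb4c transcript lie in the 971 bases of the Ndufb4 transcript, so how reads were divided between them is uncertain.

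Complex II, succinate dehydrogenase, has 4 subunits and no mitochondrially encoded one. Sdha, which carries the flavin, was 137, 134 and 138 TPM in Tmem216-/- samples and 141, 132 and 139 TPM in wild type samples, the groups overlapping (-0.01). Log2 fold changes were 0.07 for the iron-sulfur subunit Sdhb and -0.03 and -0.05 for the membrane anchors Sdhc and Sdhd. All 4 overlapped between groups. Signs this close to 0 turned with scaling: Sdha was 0.02 and Sdhc 0.0014 after quantile normalization.

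In complex III, the 4 nuclear-encoded core and catalytic subunits ran from -0.15 (Uqcrc1) to 0.13 (Uqcrc2). The 5 small subunits ran from -0.04 (Uqcr11) to 0.12 (Uqcrb). Cyc1, the subunit that passes electrons to cytochrome c, was 173, 173 and 160 TPM in Tmem216-/- samples and 181, 168 and 204 TPM in wild type samples (-0.12, SE 0.10, and -0.05 without wild type replicate 3). Uqcrc1 was 236, 240 and 223 TPM in Tmem216-/- samples and 252, 223 and 306 TPM in wild type samples, with wild type replicate 3 the highest; its log2 fold change was -0.03 without that sample, and that of Uqcrc2 was 0.03. Uqcrb, a small subunit, was 215, 251 and 238 TPM in Tmem216-/- samples and 239, 282 and 147 TPM in wild type samples. Both extremes of Uqcrb were wild type samples, and its log2 fold change was -0.15 without wild type replicate 3. Uqcr10, a small subunit, was 488, 505 and 506 TPM in Tmem216-/- samples and 484, 473 and 438 TPM in wild type samples (0.11, SE 0.08), with a narrow gap between the groups.

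In complex IV, 10 widely expressed subunits averaged between 130 and 927 TPM and had log2 fold changes from -0.08 (Cox4i1) to 0.24 (Cox7b), with 6 above 0. The 5 tissue forms averaged between 2.41 and 49.2 TPM, and 3 of them had an unadjusted limma p under 0.05. Cox4i1, the largest nuclear subunit, was 870, 953 and 870 TPM in Tmem216-/- samples and 939, 833 and 1097 TPM in wild type samples. Cox7b was 133, 146 and 138 TPM in Tmem216-/- samples and 126, 158 and 80.7 TPM in wild type samples. The low value of wild type replicate 3 carried the difference in Cox7b, which was -0.02 without it. Cox7a2l, a relative of Cox7a2 that takes part in joining complexes III and IV, had a log2 fold change of 0.09 with overlapping groups.

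Cox6a2, the muscle form of subunit 6a (chr7:128205435-128206387, minus strand, mm10), was 10.4, 25.6 and 17.9 TPM in Tmem216-/- samples and 2.55, 4.53 and 2.67 TPM in wild type samples. The lowest Tmem216-/- value was above the highest wild type value. The mean was 18.0 ± 7.57 TPM in Tmem216-/- and 3.25 ± 1.11 TPM in wild type (SD, n = 3 each), a ratio of 5.53. The log2 fold change was 2.11 (SE 0.34, 95% interval 1.30 to 2.91, limma adjusted p = 0.153). Its partner Cox6a1 was 717, 759 and 723 TPM in Tmem216-/- samples and 789, 656 and 845 TPM in wild type samples, overlapping between groups (-0.05, 95% interval -0.32 to 0.21).

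Cox7a1, the muscle form of subunit 7a (chr7:30184144-30186078, plus strand), was 9.86, 16.25 and 12.1 TPM in Tmem216-/- samples and 3.56, 2.19 and 3.25 TPM in wild type samples. The groups did not overlap, and Tmem216-/- replicate 2 held the highest value, as for Cox6a2. The mean was 12.7 ± 3.25 TPM in Tmem216-/- and 3.0 ± 0.72 TPM in wild type (SD, n = 3 each), a ratio of 4.24. The log2 fold change of 1.77 (SE 0.23, 95% interval 1.22 to 2.32) had the lowest limma adjusted p of the 84 members, 0.0920. Cox7a2 was 217, 237 and 238 TPM in Tmem216-/- samples and 246, 236 and 211 TPM in wild type samples, with a log2 fold change of -0.0023 (95% interval -0.22 to 0.21). An exact two-sided permutation test gave p = 0.1 for both muscle forms, the smallest that 3 against 3 samples allow. Leaving out each sample in turn gave log2 fold changes of 1.82 to 2.43 for Cox6a2 and 1.59 to 1.93 for Cox7a1. The other alternative settings gave wider ranges, 1.43 to 2.39 for Cox6a2 and 1.14 to 2.05 for Cox7a1.

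Cox8b, the muscle form of subunit 8 (chr7:140898945-140900446, minus strand), was 2.59, 3.96 and 1.00 TPM in Tmem216-/- samples and 0.58, 2.15 and 4.16 TPM in wild type samples. Wild type held both the lowest and the highest value. The log2 fold change was 0.16 with a 95% interval of -1.05 to 1.37, so a difference of more than 1 on the log2 scale in either direction was within the error at this level. Without wild type replicate 1 it was -0.29 and without wild type replicate 3 it was 0.56. Cox8a had a log2 fold change of 0.04, and -0.0019 after quantile normalization.

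Cox6b2, known as the testis form of subunit 6b (chr7:4751792-4753094, minus strand), was 46.4, 41.9 and 44.2 TPM in Tmem216-/- samples and 51.5, 59.3 and 51.7 TPM in wild type samples. It was lower in each Tmem216-/- sample, with a log2 fold change of -0.29 (SE 0.10, 95% interval -0.52 to -0.06, limma adjusted p = 0.983). The 4 germ cell markers summed to at most 1.01 TPM in any sample, with Tnp1 at 0. Cox4i2, the form of lung and a few other cell types, was 5.57, 6.98 and 7.03 TPM in Tmem216-/- samples and 7.71, 4.94 and 5.18 TPM in wild type samples, which overlapped (0.13, and between 0.03 and 0.31 when each sample was left out).

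**Figure D2:**
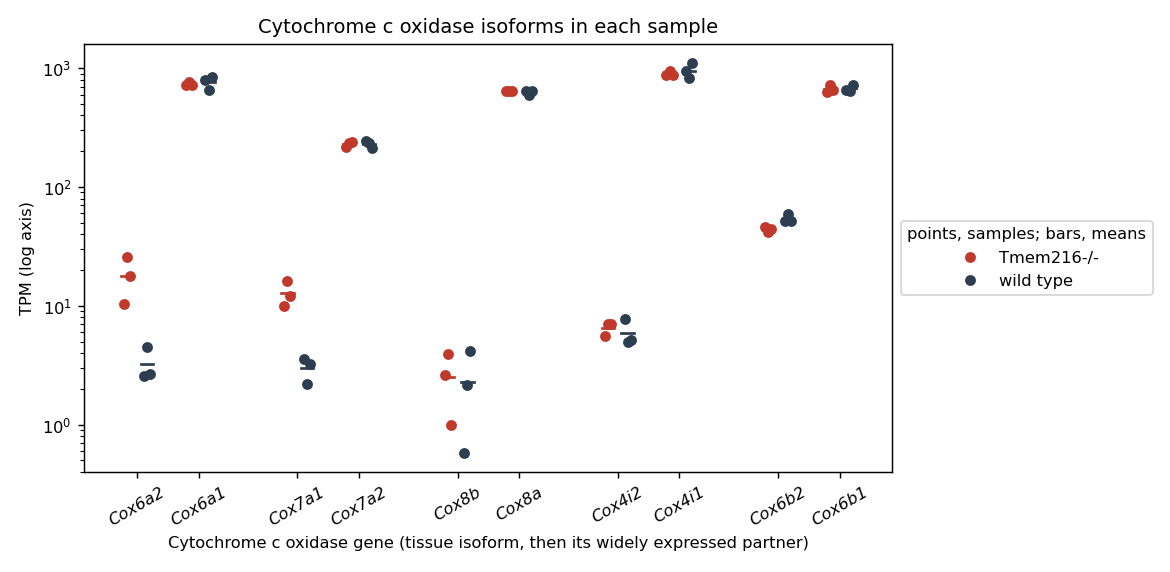
Points are the TPM (log axis) of 5 tissue forms of cytochrome c oxidase subunits and their widely expressed partners in each of 3 Tmem216-/- and 3 wild type samples, with bars at the mean. Cox6a2 and Cox7a1 are higher in each Tmem216-/- sample, Cox6b2 is lower in each, and the other 7 genes overlap between groups.

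As a share of its pair, Cox6a2 made up 1.43%, 3.26% and 2.41% of Cox6a1 and Cox6a2 in Tmem216-/- samples and 0.322%, 0.686% and 0.315% in wild type samples. The mean was 2.37 ± 0.914% in Tmem216-/- and 0.441 ± 0.212% in wild type (SD, n = 3 each; exact two-sided permutation p = 0.1). Cox7a1 made up 5.20 ± 1.09% of Cox7a1 and Cox7a2 in Tmem216-/- and 1.29 ± 0.322% in wild type (exact two-sided permutation p = 0.1). The muscle forms remained the minor form of their pairs in every sample. Cox8b made up 0.388 ± 0.228% of its pair in Tmem216-/- and 0.364 ± 0.275% in wild type (exact two-sided permutation p = 0.8). The longest stretch that these transcripts share with their partners is 12 bases for Cox6a2, 12 for Cox7a1 and 10 for Cox8b.

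Markers of heart muscle were higher in the same samples as Cox6a2 and Cox7a1. The 18 markers summed to 960, 2442 and 1521 TPM in Tmem216-/- samples and 87.0, 114 and 79.0 TPM in wild type samples. In limma 14 of 18 were called higher at an adjusted p under 0.05, where 0.0975% of all tested genes were. Of the 18, 17 were higher without overlap between groups, where 4.75% of all genes were. None was at 0, and Hand2 was the exception (-0.18). The number of heart calls fell when any sample was left out and under some settings. It was 0 with no filter on low values or without wild type replicate 1 or 3. It was 1 without Tmem216-/- replicate 3, 2 without wild type replicate 2 and 7 without Tmem216-/- replicate 2. With a pseudocount of 5 it was 9, and without Tmem216-/- replicate 1 it was 13. The log2 fold changes of the heart markers of smallest p stayed high when each sample was left out. They ran from 5.76 to 6.52 for Myl7, 3.65 to 4.08 for Myh6 and 3.86 to 4.41 for Nppb. Myl7, the atrial myosin light chain, was 151, 436 and 270 TPM in Tmem216-/- samples and 1.91, 4.91 and 2.04 TPM in wild type samples (6.13, limma adjusted p = 0.0174). Replicate 2 was the highest and replicate 1 the lowest Tmem216-/- sample in the heart sum, in Cox6a2 and in Cox7a1. Not every heart marker had this order: among Tmem216-/- samples Nppa and Gata4 were lowest in replicate 3, and Tbx5 and Hand2 highest there. The order was also not particular to the muscle forms. The members' median deviation from each gene's mean (log2 scale) was -0.0549, 0.0936 and 0.0196 in Tmem216-/- replicates 1, 2 and 3. The 12 skeletal muscle markers summed to 395, 200 and 365 TPM in Tmem216-/- samples and 203, 379 and 307 TPM in wild type samples, with 0 of 11 tested called. Tmem216-/- replicate 2 and wild type replicate 1 had the lowest skeletal sums, close to each other. Of the 4 brown fat markers, Ucp1 averaged 0.0933 TPM in Tmem216-/- and 0.103 TPM in wild type, and Cidea 0.53 TPM in Tmem216-/- and 0.257 TPM in wild type. Ebf2 averaged 28.8 ± 2.57 TPM in Tmem216-/- and 22.2 ± 2.34 TPM in wild type, and Prdm16 21.9 ± 0.815 TPM in Tmem216-/- and 26.6 ± 3.10 TPM in wild type (SD, n = 3 each); the groups of both did not overlap and neither was called. The 8 liver markers summed to 998, 104 and 141 TPM in Tmem216-/- samples and 2028, 2386 and 203 TPM in wild type samples. All 8 had a log2 fold change below 0 (median -1.96) with overlapping groups and 0 calls, and wild type replicate 3 was low too. The part of heart, liver or other tissue content in the difference of Cox6a2 and Cox7a1 was not tested.

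**Figure D3:**
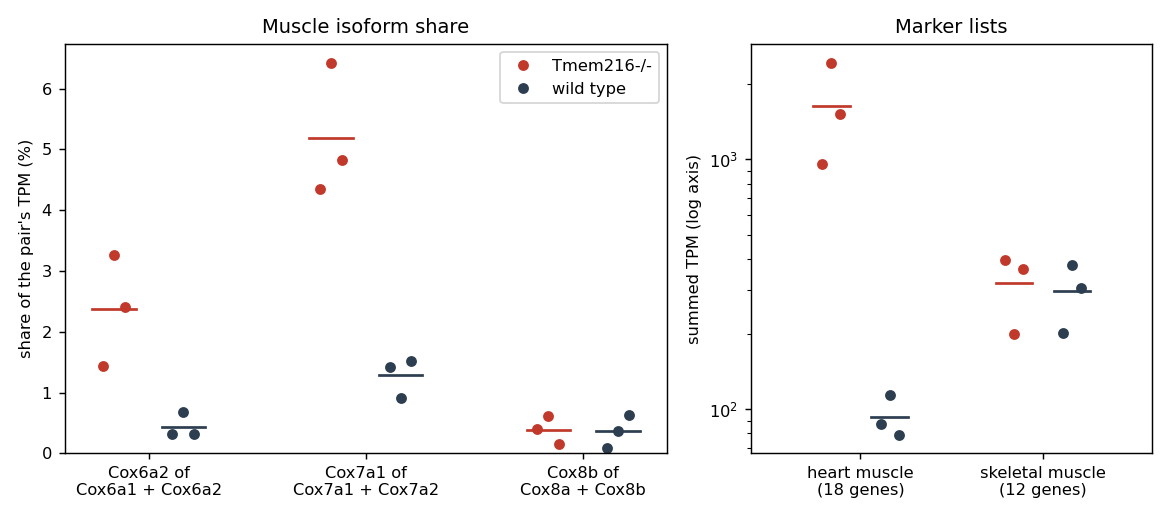
The left panel plots the share of each pair's TPM (%) taken by the muscle form, and the right panel the summed TPM (log axis) of 18 heart and 12 skeletal muscle markers, in each of 3 Tmem216-/- and 3 wild type samples with bars at the mean. Shares of Cox6a2 and Cox7a1 and the heart sum are higher in each Tmem216-/- sample, while the share of Cox8b and the skeletal sum overlap.

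Promoters are shown for Cox7a1, which was higher in each Tmem216-/- sample, for Cox8b, a muscle form whose groups overlapped, and for Cox7a2 and Cox6a1, partners made in most tissues. The promoter of Cox6a2 is not shown. Each is the 250 bases before the RefSeq start (GRCm38.p6), 5′ to 3′ on the gene's strand, at chr7:30183921-30184170 (plus strand) for Cox7a1, chr7:140900447-140900696 (minus) for Cox8b, chr9:79759854-79760103 (minus) for Cox7a2 and chr5:115348959-115349208 (minus) for Cox6a1. Capitals mark matches to an E-box (CANNTG), to the motif of NRF1, a regulator of respiratory chain genes, and to the ETS motif bound by GABP (CCGGAAG), searched on both strands.
Cox7a1: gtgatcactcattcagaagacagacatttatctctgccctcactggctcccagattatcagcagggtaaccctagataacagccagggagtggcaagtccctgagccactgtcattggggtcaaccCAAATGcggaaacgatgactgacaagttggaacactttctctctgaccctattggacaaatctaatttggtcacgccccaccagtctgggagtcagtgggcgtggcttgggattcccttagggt
Cox8b: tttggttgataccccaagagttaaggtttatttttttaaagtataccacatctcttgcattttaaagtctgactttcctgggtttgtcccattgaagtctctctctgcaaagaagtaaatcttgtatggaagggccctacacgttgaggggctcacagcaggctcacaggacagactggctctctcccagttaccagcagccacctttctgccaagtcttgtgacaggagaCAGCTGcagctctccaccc
Cox7a2: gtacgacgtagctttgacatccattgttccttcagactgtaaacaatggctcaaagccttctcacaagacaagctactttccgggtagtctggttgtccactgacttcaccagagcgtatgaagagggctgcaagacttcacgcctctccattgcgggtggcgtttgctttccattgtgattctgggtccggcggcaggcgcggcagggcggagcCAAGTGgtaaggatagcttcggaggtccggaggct
Cox6a1: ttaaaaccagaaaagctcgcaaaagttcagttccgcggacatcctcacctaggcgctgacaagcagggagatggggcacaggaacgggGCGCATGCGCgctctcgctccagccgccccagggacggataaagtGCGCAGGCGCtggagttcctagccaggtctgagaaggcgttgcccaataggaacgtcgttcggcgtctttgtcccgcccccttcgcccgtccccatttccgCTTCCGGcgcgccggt
Cox7a1 holds 1 E-box match at -124 from the start, Cox8b 1 at -19 and Cox7a2 1 at -35. Cox6a1 holds NRF1 matches at -162 and -117 and an ETS match at -16, and no marked matches overlap.

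RefSeq promoters of 300 bases (250 before and 50 after the start) were matched for 67 of the 84 members. The NRF1 motif was found in 13 of them (19.4%), against 5.84% of 17492 protein-coding genes, and the ETS motif in 12 (17.9%), against 10.2%. NRF1 matches included Sdha and Sdhd of complex II and Atp5c1, Atp5g2, Atp5h and Atp5k of complex V. E-box letters were found in 62.7% of members and 66.3% of coding genes. The MEF2 motif was found in 1 member, Cox5b (1.49%, against 3.56%). A match describes letters in a window and is no evidence of binding.

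Complex V held the most abundant member. Atp5b, the catalytic beta subunit, was 2629, 2485 and 2417 TPM in Tmem216-/- samples and 2320, 2095 and 2688 TPM in wild type samples, with both extremes in wild type (0.09, and 0.0068 without wild type replicate 2 or 0.19 without wild type replicate 3). The 5 subunits of the catalytic head with its central stalk ran from -0.03 (Atp5d) to 0.09 (Atp5b). The 4 of the peripheral stalk ran from 0.03 (Atp5h) to 0.18 (Atp5f1), and the 7 of the membrane part from -0.05 (Atp5g1) to 0.32 (Atp5g2). Atp5mpl, a small membrane subunit, was 563, 628 and 624 TPM in Tmem216-/- samples and 528, 571 and 434 TPM in wild type samples (0.25, SE 0.12, limma adjusted p = 0.983). The groups overlapped by a single pair of samples, and the log2 fold change was 0.14 without wild type replicate 3. Atp5s, counted here by symbol only and named Dmac2l in RefSeq, was the lowest of the genes counted under complex V. It had a log2 fold change of -0.02 with an SE of 0.20.

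Atp5g1, Atp5g2 and Atp5g3 encode the same mature c subunit of the proton-conducting ring. Atp5g3 gave 69.4 ± 1.72% of their summed TPM in Tmem216-/- and 69.0 ± 1.12% in wild type, and Atp5g1 gave 27.4 ± 1.84% in Tmem216-/- and 28.4 ± 0.463% in wild type (SD, n = 3 each). Atp5g2 gave 3.14 ± 0.640% in Tmem216-/- and 2.53 ± 0.682% in wild type, and was 32.9, 37.2 and 23.1 TPM in Tmem216-/- samples against 25.9, 16.3 and 33.6 TPM in wild type samples. All 3 shares overlapped between groups. The Atp5g2 log2 fold change of 0.32 (SE 0.29) was 0.05 without wild type replicate 2.

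Summed over all 84 members, the level was 23673, 25753 and 24580 TPM in Tmem216-/- samples and 24492, 22498 and 25116 TPM in wild type samples, or 2.47% of the total in Tmem216-/- and 2.40% in wild type on average. The groups overlapped (exact two-sided permutation p = 0.6). The Tmem216-/- mean was 102.8% of the wild type mean for complex I, 99.77% for II, 101.6% for III, 101.5% for IV and 103.7% for V. The 13 mitochondrially encoded subunits summed to 28617, 32266 and 31596 TPM in Tmem216-/- samples and 24474, 37792 and 14781 TPM in wild type samples. Wild type held both extremes of that sum. Its replicate 3 held the lowest value of mt-Nd1, mt-Nd2, mt-Nd4, mt-Nd5, mt-Nd6, mt-Cytb, mt-Co1 and mt-Atp8. Its replicate 2 held the highest value of each of these but mt-Co1. The log2 fold change of mt-Co1 was 0.40, and 0.14 without wild type replicate 3. Of the 12 tested mitochondrial genes 0 were called, with 11 above 0 and a median of 0.34. Among them mt-Co2 encodes a catalytic core subunit of complex IV. It was 187, 291 and 287 TPM in Tmem216-/- samples and 50.6, 177 and 182 TPM in wild type samples. Its log2 fold change was 1.08 (limma adjusted p = 0.983), and 0.48 without wild type replicate 1. It alone of the 12 was higher without overlap between groups, as were 4.75% of all tested genes. The gene below 0 was mt-Co3, another core subunit of complex IV, at 0.34, 66.5 and 377 TPM in Tmem216-/- samples and 154, 273 and 137 TPM in wild type samples (-2.47, SE 1.88), where Tmem216-/- samples held both extremes. mt-Atp6, which was not tested, was listed at 0, 4.57 and 0 TPM in Tmem216-/- samples and 0, 0 and 0.01 TPM in wild type samples; its gene overlaps mt-Atp8, so how reads were divided between them is uncertain.

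**Figure D4:**
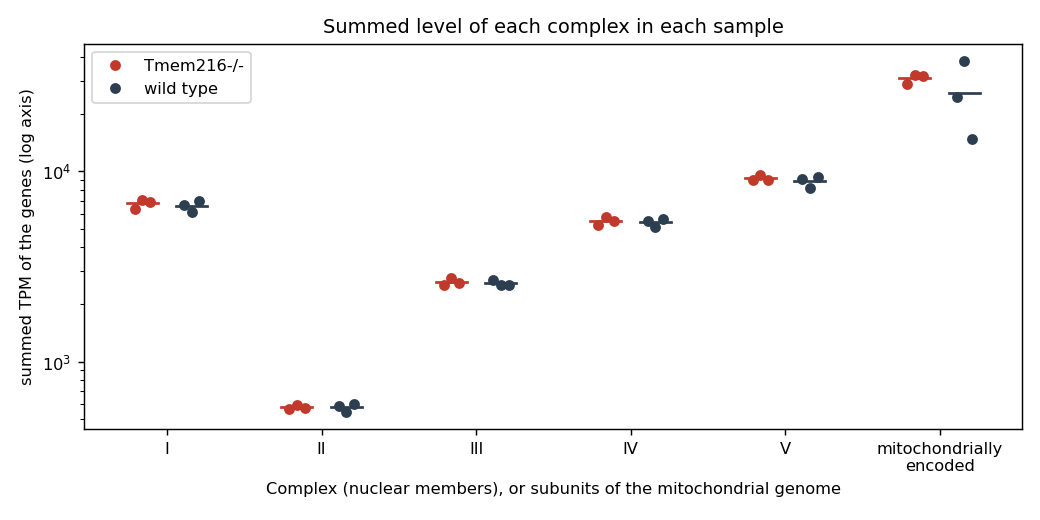
Points are the summed TPM (log axis) of the nuclear members of each complex, and of the 13 subunit genes of the mitochondrial genome, in each of 3 Tmem216-/- and 3 wild type samples, with bars at the mean. The groups overlap in each complex, and the mitochondrially encoded sum spreads most in wild type, between 14781 and 37792 TPM.

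The listed genes that build or supply the chain gave no limma call. Of 46 tested assembly factors 0 were called, 25 were above 0 and the median was 0.01; Coa7, a complex IV assembly factor, averaged 14.2 ± 0.639 TPM in Tmem216-/- and 18.6 ± 3.47 TPM in wild type (-0.35, limma adjusted p = 0.983). Of 17 tested regulators of mitochondrial biogenesis 0 were called, with a median of 0.02; Polrmt, the mitochondrial RNA polymerase, averaged 28.7 ± 1.74 TPM in Tmem216-/- and 35.5 ± 4.47 TPM in wild type (-0.29). The 14 citric acid cycle genes had 0 calls and a median of 0.01.

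Of 12 tested fuel and energy transfer genes of muscle 0 were called, with a median of 0.21. At an unadjusted limma p under 0.05, 3 were higher, where 2.24% of all tested genes were. Fabp3, a fatty acid carrier of heart and skeletal muscle, was 26.2, 41.7 and 39.2 TPM in Tmem216-/- samples and 13.7, 18.3 and 20.9 TPM in wild type samples (0.97, limma adjusted p = 0.498). Cpt1b, the muscle form of the enzyme that admits fatty acids to mitochondria, had a log2 fold change of 0.98 (adjusted p = 0.636), and Pygm, muscle glycogen phosphorylase, 1.03 (adjusted p = 0.616). These 3 were higher without overlap between groups, as were 4.75% of all tested genes. Of 10 listed cristae and cytochrome c genes, Micos10 and Micos13 were not among the deposited rows. The other 8 were all above 0, where 48.3% of all tested genes were, with a median of 0.17 and 0 calls. Wild type replicate 3 held the lowest value of each of these 8 except Chchd6. Chchd10 was 17.3, 22.6 and 22.1 TPM in Tmem216-/- samples and 12.6, 13.9 and 9.32 TPM in wild type samples. Its log2 fold change was 0.75 (limma adjusted p = 0.582), and 0.60 without wild type replicate 3.

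The members varied little among samples, close to other genes of high level. The median SE of the log2 fold change was 0.108 over the members and 0.174 over all tested genes. It was 0.119 over the 3272 genes that averaged 50 TPM or more, as did 75 of the 84 members. The ratio of the highest to the lowest of the 6 samples had a median of 1.28 over the members and 1.55 over 16032 genes above 0 in every sample. It was 2 or more for 5 members: Cox6a2, Cox7a1, Cox8b, Atp5g2 and Ndufa4l2. Wild type replicate 2 held the lowest value of 42 members and wild type replicate 3 the highest of 34. Wild type replicate 3 also held the lowest value of 20 members. It held the highest or the lowest value of 62% of all tested genes, so its extremes were not particular to the members. For wild type replicate 2 the share over all tested genes is not given here. Without wild type replicate 3, 67 members were above 0 and 17 below, and 0 were called.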

How the data were processed

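RNA was sequenced from 3 Tmem216-/- and 3 wild type E12 embryo samples, grouped by their labelled genotype. Per the submitters' processing notes, CASAVA 1.8, HISAT2, StringTie, RSEM and the mm10 build were used; their roles and settings are not given in the sources used here. The authors deposited 1 table of TPM values with 56359 rows; 2 further columns equal to the group means were not used, and 27 gene names turned into dates were recovered by identifier. From the deposited TPM, log2(TPM + 1) was computed and tested with limma 3.58.1 (R 4.3.3; empirical Bayes with a trend, two-sided, Benjamini-Hochberg over 16411 genes that reached 1 TPM in 3 or more samples). Fold changes are on this scale, which understates changes of low genes. Sums and shares were compared by exact permutation tests (scipy 1.17.1). The fit was checked on simulated data, where 36 of 50 genes changed 2-fold and 45 of 50 changed 4-fold were called. Of 196 calls there, 15 were false. Only genes above a set level were changed in it, so it does not cover low genes. Read depth is unknown, so no counting error is given. Replicate numbers did not pair the samples (correlations of same-numbered deviations 0.016, -0.093 and 0.101). Coordinates are from GENCODE M21, and promoters from RefSeq (GRCm38.p6).

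The members and lists were chosen with earlier results of these data known, and roles within complexes were arranged after values were seen. Named genes were the isoforms and their partners, complex II, Cyc1, the extremes of level and fold change of each complex, and up to 3 genes of smallest p per list; others are named for a count or as markers. Alternatives were other pseudocounts, filters, scalings and variance settings, removal of haemoglobin, mitochondrial and rRNA genes, a replicate block and leaving out each sample. The values of 1 member are not reported here.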

Additional observations from a re-analysis of the deposited data

How the results depend on the processing

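No member tested was called under any of 16 alternatives; all 84 were tested in each but the filter at 5 TPM, which left 82. Limma called 17 genes over the whole table, 0 with no filter on low values (1207 at an unadjusted p under 0.05, of 30598 tested), 0 to 27 when each sample was left out (0 without wild type replicate 1, with 518 at an unadjusted p under 0.05; 27 without Tmem216-/- replicate 1; 9 and 7 without Tmem216-/- replicates 2 and 3; 2 and 1 without wild type replicates 2 and 3) and 12 to 25 otherwise. The cause was not tested. With the replicate block 25 genes and 0 members were called, and adjusted p was 0.0577 for Cox6a2 and 0.213 for Cox7a1; over all alternatives it ran from 0.0577 to 0.648 for Cox6a2 and from 0.0754 to 0.461 for Cox7a1. The members' median log2 fold change was 0.036 to 0.0508 under other settings and -0.0017 to 0.0781 when each sample was left out. Share differences (Tmem216-/- minus wild type, percentage points) then ran from 1.48 to 2.40 for Cox6a2, 3.30 to 4.33 for Cox7a1 and -0.113 to 0.162 for Cox8b.

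Signs of several uncalled genes depended on the setting. Log2 fold changes of opposite sign were 0.0065 for Cox7a2 under median-of-ratios scaling; -0.0208 for Atp5g3, 0.0109 for Cox7a2, -0.0019 for Cox8a, 0.0181 for Sdha and 0.0014 for Sdhc under quantile normalization; and 0.003 for Cox6b1, 0.0104 for Cox7a2 and 0.0004 for Sdha with haemoglobin, mitochondrial and rRNA genes removed. When each sample was left out, 20 genes changed sign, with ranges of -0.141 to 0.0472 (Atp5g1), -0.1704 to 0.1763 (Atp5s), -0.0682 to 0.0448 (Cox6b1), -0.0661 to 0.0443 (Cox7a2), -0.0799 to 0.0419 (Sdhc), -0.0335 to 0.0588 (Atp5g3), -0.2933 to 0.5605 (Cox8b), -0.061 to 0.1095 (Uqcrh), -0.0389 to 0.0056 (Sdha), -0.0161 to 0.3135 (Ndufc1), -0.0492 to 0.1747 (Sdhb), -0.1232 to 0.0051 (Sdhd), -0.1268 to 0.0561 (Atp5d), -0.179 to 0.0196 (Cox4i1), -0.156 to 0.0266 (Cox6a1), -0.0249 to 0.4567 (Cox7b), -0.0537 to 0.4363 (Dld), -0.1313 to 0.0345 (Ndufa10), -0.1668 to 0.0075 (Ndufv3) and -0.15 to 0.3178 (Uqcrb). Cox6b2 no longer had an unadjusted p under 0.05 with the replicate block or without Tmem216-/- replicate 2, Tmem216-/- replicate 3 or wild type replicate 2. The call of Tmem216 was lost with a pseudocount of 0.1 (adjusted p 0.0667) and with no filter (0.0874).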
